A study of Danio rerio with 24 samples.

Results

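The eye-field transcription factors of the zebrafish embryo were followed here in dissected retinas and whole embryos, in wild-type (WT) animals and in the retinal mutant young (yng). The members were the probe sets whose platform gene symbol is rx1, rx2, rx3, pax6a, pax6b, six3a, six3b, six6a or nr2e1. All 9 genes were found, out of 8793 genes named on the array, and 10 probe sets measured them, because rx2 has a pair of them (the brighter Dr.539.1.S1_at and the dimmer Dr.539.1.S1_s_at). The others are Dr.538.1.S1_at for rx1, Dr.540.1.S1_at for rx3, Dr.24244.2.S1_a_at for pax6a, Dr.8182.1.S1_at for pax6b, Dr.616.1.S1_at for six3a, Dr.615.1.S1_at for six3b, Dr.26486.1.S1_at for six6a and Dr.5192.1.A1_at for nr2e1. No probe set that names several genes names a member, and no member was listed at 0 on any array. Each value is a probe set intensity on a linear scale, and the members ran from 25.8 to 5555 in a table that reaches 20110.5.

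RNA was measured on 24 Affymetrix arrays of 1 colour, 3 for each of 8 groups. The groups were WT retina, yng retina, WT whole embryo and yng whole embryo, each at 36 and at 52 hours post fertilization (hpf). All carry the strain label AB except 1 WT embryo array with no strain label, and no other allele or agent is labelled. A replicate is RNA pooled from 10 embryos or 10 retinas (20 retinas for yng at 36 hpf), and 33 ng of RNA was labelled per pool. The yng lesion lies in smarca4a (brg1), which encodes the motor subunit of the SWI/SNF remodeller of chromatin, and it is present in every cell of the mutant, not only in the retina. Both tissues of a genotype contain eyes, since a whole embryo includes its retinas.

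The eye field is the patch of the anterior neural plate from which both retinas arise, and it is defined by a set of transcription factors that activate one another. Rx proteins are paired-type homeodomain factors that drive the outgrowth of the optic vesicle and the proliferation of retinal progenitors. Pax6 proteins carry a paired domain and a homeodomain and keep retinal progenitors able to form many cell types. Six3 and Six6 are homeodomain factors that act largely as repressors, together with Groucho/TLE proteins, and Nr2e1, the vertebrate tailless, is an orphan nuclear receptor that keeps neural progenitors cycling. Several of these genes are used again in differentiated cells, such as Pax6 in amacrine and ganglion cells of the vertebrate retina.

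As a check of the genotype labels, smarca4a itself (Dr.2414.1.S2_at) had intensities of 3134 to 4158 on the 12 WT arrays and 756.6 to 1251 on the 12 yng arrays. Retina arrays had lower medians (145.28 to 165.31) than embryo arrays (223.3 to 240.67), so the arrays were brought to 1 distribution by quantile normalization before the comparison. Differences below are of normalized log2 intensity ± SE, with 3 arrays a group, and adjusted p is from limma over 15502 probe sets with a threshold of 0.05. The replicate number in the retinas is also the day of hybridization, and values with the day as a block are given where they change a call. WT and yng arrays always ran on different fluidics stations, so the station cannot be told apart from the genotype. The module of the station likewise went with the combination of tissue and age. The number of arrays limits the precision. P-values measure the spread between pools of animals, not between single animals. In the main fit, which has no block, that spread also holds differences between hybridization days.

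**Figure D1:**
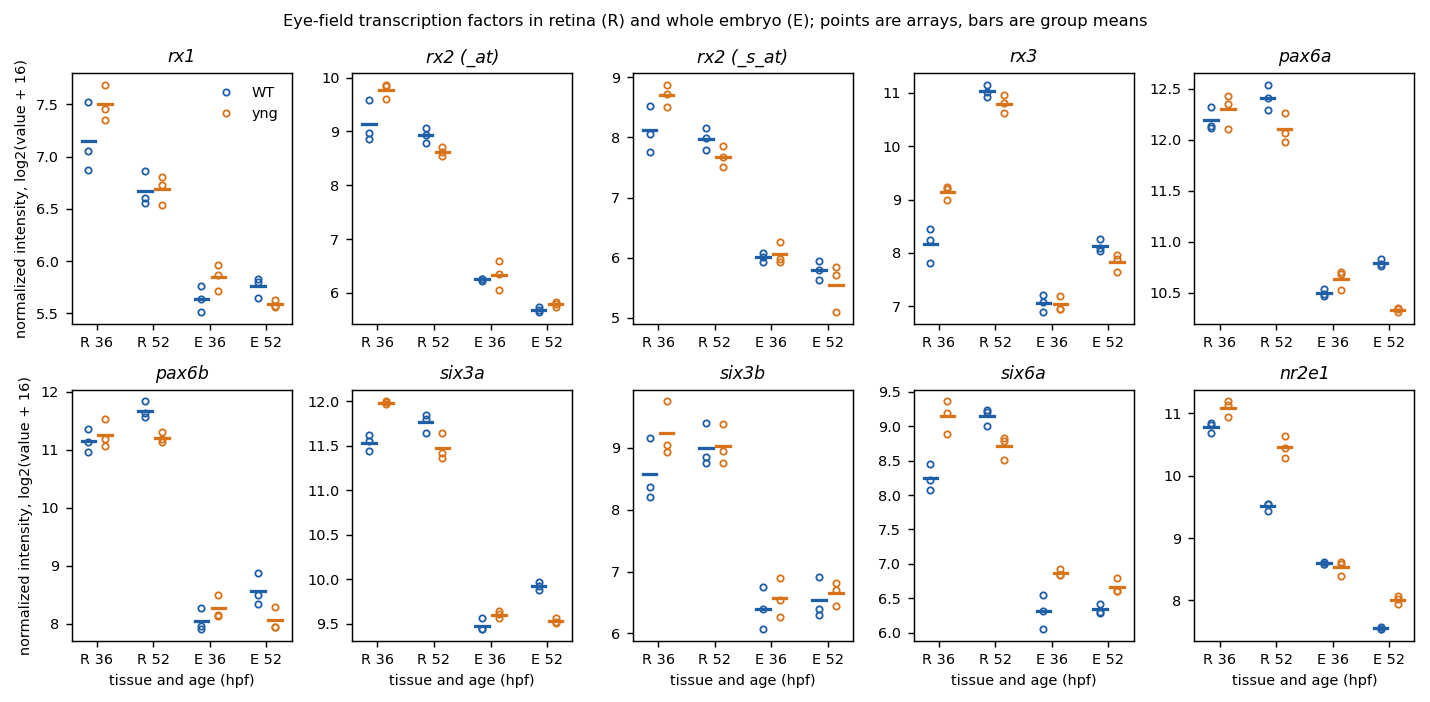
Normalized intensity, as log2(value + 16), of each member probe set on the 24 arrays, by group, with a point per array and a bar at the group mean. In each panel the retina points lie above the embryo points of the same age and genotype, and for rx3 both retina groups at 52 hpf stand at the top (11.02 in WT and 10.79 in yng).

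All 10 member probe sets were higher in retina than in whole embryo of the same genotype and age, in each of the 4 such comparisons. Among all probe sets, 51.1% were higher in retina in WT at 36 hpf, 49.8% in WT at 52 hpf, 51.8% in yng at 36 hpf and 51.2% in yng at 52 hpf. The median difference of the members was 2.09, 2.33, 2.47 and 2.26 in that order, beside 0.39, 0.37, 0.40 and 0.40 for all probe sets. The shift of all probe sets depends on the scaling. On intensities as deposited it was -0.08, -0.02, -0.05 and -0.03, and the share of calls that were higher in retina fell from 69.5%, 71.2%, 69% and 69.5% to 33.4%, 37%, 38.9% and 38.1%. All 10 member probe sets were still called higher on that scale, with medians of 1.63, 1.88, 2.09 and 1.76. Muscle markers bear on the dissection, and their summed intensity was 204.3 to 371.8 on retina arrays against 69380 to 75580 on embryo arrays. Some other lists lay less far apart. Red cell markers summed to 1525 to 5393 on retina arrays and 19000 to 22480 on embryo arrays. Forebrain and other brain markers gave 687.6 to 2452 and 2915 to 4029, and pigment markers 396.6 to 691 and 1487 to 2132, in that order. The photoreceptor gene crx was higher in WT retina than in WT embryo by 3.73 ± 0.16 at 36 hpf and 1.78 ± 0.16 at 52 hpf. Of the 12 measured photoreceptor markers, crx among them, 8 were higher and 1 lower at 36 hpf (median 0.58). Of 7 amacrine markers 2 were higher and 4 lower then (median -1.44), and of 8 ganglion cell markers 1 and 5 (median -0.69). At 52 hpf all 12 photoreceptor markers were higher (median 1.15). Amacrine markers then had 4 higher and none lower (median 0.73), and ganglion cell markers 2 higher and 1 lower (median 0.02).

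The size of the retinal excess varied among the members. For pax6b the differences were 3.10 ± 0.16 in WT at both ages, 2.99 in yng at 36 hpf and 3.14 in yng at 52 hpf. The brighter rx2 probe set gave 2.89 and 3.25 in WT and 3.44 and 2.83 in yng, at 36 and 52 hpf. For rx1 it was 1.51 ± 0.14 and 0.91 in WT and 1.65 and 1.11 in yng, at 36 and 52 hpf. For rx3 it depended most on age in WT, at 1.1 ± 0.14 at 36 hpf and 2.89 at 52 hpf. On deposited intensities the values were 0.47 for rx1 in WT at 52 hpf and 0.58 for rx3 in WT at 36 hpf. In whole embryos fewer expressing cells and less RNA per cell cannot be told apart, and the same holds for every comparison of pooled tissue here.

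**Figure D2:**
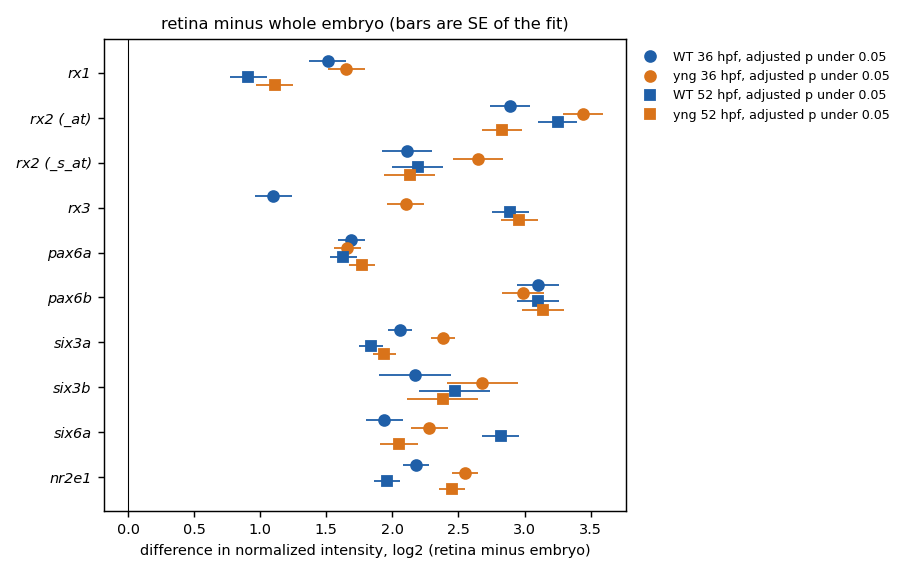
Retina minus whole embryo difference in normalized log2 intensity for each member probe set in the 4 combinations of genotype and age, with bars of 1 SE. All points lie above 0, from 0.91 for rx1 in WT at 52 hpf to 3.44 for rx2 in yng at 36 hpf.

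In WT retinas the members parted ways between 36 and 52 hpf. Of the 10 probe sets 4 rose (rx3, pax6b, six3a and six6a), 2 fell (rx1 and nr2e1) and 4 did not pass, where 16.1% of all probe sets rose and 20.8% fell. The largest change was in rx3, the Rx paralogue that in zebrafish is required for the optic vesicles to form. Its intensity was 157, 266 and 229 at 36 hpf and 1782, 2073 and 1972 at 52 hpf. The ages are far apart, and the rise was 7.23-fold (2.85 ± 0.14, adjusted p = 2.99e-12).

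The tailless gene nr2e1 went the opposite way in WT retinas. Its intensity was 1515, 1399 and 1664 at 36 hpf and 622, 644 and 663 at 52 hpf, with no overlap. The fall was 2.40-fold (-1.27 ± 0.10, adjusted p = 2.11e-09). The Six6 gene six6a had 189, 267 and 224 at 36 hpf and 523, 509 and 435 at 52 hpf, a rise of 0.91 ± 0.14 (adjusted p = 2e-05). Its levels at 52 hpf were all above those at 36 hpf.

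Smaller changes were seen in the remaining WT members. The Pax6 gene pax6b rose by 0.52 ± 0.16 (adjusted p = 0.0137), from 1679, 2271 and 2068 to 2798, 3413 and 3096. The Six3 gene six3a rose by 0.23 ± 0.09 (adjusted p = 0.047), a call that was lost without any of 4 single arrays (adjusted p = 0.0796 to 0.169). The early retinal gene rx1 fell by 0.47 ± 0.14 (adjusted p = 0.0106), from 73.7, 91.6 and 131 to 67.1, 67.2 and 84.9, and the arrays of the ages overlapped as deposited, though not after normalization. That call was lost without WT retina 36 hpf replicate 3 (adjusted p = 0.0969) or WT retina 52 hpf replicate 1 (adjusted p = 0.0511), and on intensities as deposited (adjusted p = 0.0685). The call of pax6b was lost without WT retina 36 hpf replicate 1 (adjusted p = 0.0686) or WT retina 52 hpf replicate 2 (adjusted p = 0.0642). With the day as a block pax6a (0.23, adjusted p = 0.0194) and six3b (0.43, adjusted p = 0.00941) passed as well. With only the groups compared in the fit, rx1 (adjusted p = 0.102) and six3a (adjusted p = 0.198) did not pass. Neither rx2 probe set passed, at -0.21 ± 0.15 and -0.14 ± 0.19.

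In yng retinas the same interval gave 1 rise and 6 falls, where 12.2% of all probe sets rose and 13.4% fell. The rise was again rx3, by 1.65 ± 0.14 (adjusted p = 2.04e-08), from 481, 472 and 398 to 1356, 1877 and 1618. Both rx2 probe sets fell, the brighter from 628, 773 and 778 to 302, 296 and 348, by 1.15 ± 0.15 (adjusted p = 5.62e-06), and the dimmer by 1.03 ± 0.19 (adjusted p = 0.000247). These yng ages did not overlap for rx2 or for rx3.

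Further falls in yng retinas were those of rx1 (-0.81 ± 0.14), nr2e1 (-0.62 ± 0.10), six3a (-0.52 ± 0.09) and six6a (-0.44 ± 0.14). The adjusted p was 4.44e-05 to 0.000135 for rx1, nr2e1 and six3a, and it was 0.0218 for six6a, lost without any of 3 single arrays (adjusted p = 0.0687 to 0.125) and with only the groups compared in the fit (adjusted p = 0.0828). The intensity of six3a went from 3372, 3732 and 3557 to 2283, 3055 and 2423, all lower at 52 hpf. For pax6a, pax6b and six3b the differences were -0.19 ± 0.10, -0.05 ± 0.16 and -0.21 ± 0.27 and did not pass. In the cycling list of 14 measured genes 11 fell in WT retinas over this interval (median -0.67) and 6 in yng retinas (median -0.35), and none rose in either.

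**Figure D3:**
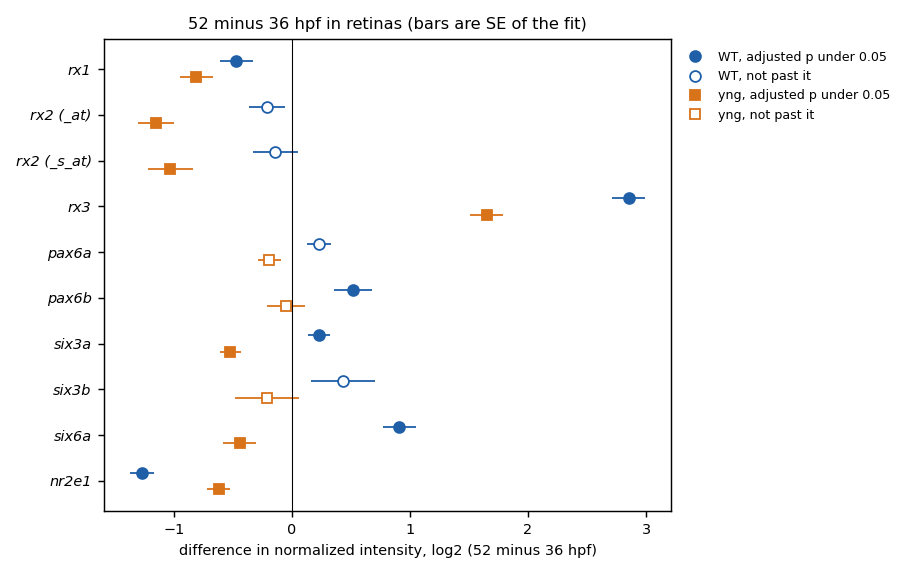
Difference between 52 and 36 hpf in retinas, in normalized log2 intensity with bars of 1 SE, for WT (circles) and yng (squares), filled where adjusted p is under 0.05. six3a and six6a lie right of 0 in WT and left of 0 in yng, and rx3 lies right of 0 in both (2.85 and 1.65).

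Genotype was compared within each age. In retinas at 36 hpf rx2, rx3, six3a and six6a were higher in yng and no member was lower, where 4.19% of all probe sets were higher and 4.9% lower. The median of the 10 members was 0.52, against 0.02 for all probe sets, and 8 had an unadjusted p under 0.05. With the day as a block 7 were called, all higher.

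For rx3 the intensity was 157, 266 and 229 in WT and 481, 472 and 398 in yng retinas at 36 hpf, with no overlap. The difference was 0.97 ± 0.14 or 1.96-fold (adjusted p = 0.0001). For six6a it was 189, 267 and 224 in WT and 375, 536 and 460.0 in yng, again with every yng array above every WT array. This difference was 0.90 ± 0.14 or 1.87-fold (adjusted p = 0.000143). The levels of six3a were 2384, 2770.0 and 2762 in WT and 3372, 3732 and 3557 in yng, without overlap. The difference was 0.45 ± 0.09 or 1.37-fold (adjusted p = 0.0017), and it did not pass with only the WT and yng retinas of 36 hpf in the fit (adjusted p = 0.114).

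The brighter rx2 probe set had 347, 407 and 634 in WT and 628, 773 and 778 in yng retinas at 36 hpf. WT replicate 3 lay slightly above the lowest yng array as deposited, though not after normalization. The difference was 0.63 ± 0.15 (adjusted p = 0.00965), and it was lost without WT replicate 1 (adjusted p = 0.0705) or WT replicate 2 (adjusted p = 0.0519), with only the groups compared in the fit (adjusted p = 0.209) and with quantile normalization within each tissue (adjusted p = 0.0597). The dimmer rx2 probe set differed by 0.59 ± 0.19 (adjusted p = 0.0546, and 0.0091 with the day as a block).

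Of the members that did not pass at 36 hpf, six3b had 210.0, 252 and 455 in WT and 390.0, 416 and 706 in yng, with overlapping groups and replicate 3 highest in both. Its difference was 0.67 ± 0.27 (adjusted p = 0.145, and 0.00127 with the day as a block). For nr2e1, 1515, 1399 and 1664 in WT stood below 1803, 1748 and 2125 in yng. Its difference was 0.30 ± 0.10 (adjusted p = 0.0564, and 0.0118 with the day as a block). In rx1 the difference was 0.35 ± 0.14 (adjusted p = 0.134), with 124, 116 and 148 in yng retinas overlapping the WT values. Without WT retina 36 hpf replicate 3, the highest WT array for rx1, rx2 and six3b, the adjusted p was 0.00924 for rx1, 0.00843 for the dimmer rx2 probe set and 0.0289 for six3b, and 7 probe sets were called. The Pax6 pair differed by 0.11 ± 0.10 and 0.10 ± 0.16, with 95% intervals of -0.10 to 0.32 for pax6a and -0.23 to 0.44 for pax6b.

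The array record of yng retina 36 hpf replicate 1 holds a wash error. Without that array the differences were 0.92 for rx3, 1.03 for six6a, 0.45 for six3a and 0.71 for the brighter rx2 probe set, and all 4 calls were kept. As a measure of RNA quality, the log2 ratio of the 3' to the 5' gapdh probe set differed by -0.208 between yng and WT retinas at 36 hpf and by 0.382 at 52 hpf. Its part in the results was not tested.

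At 52 hpf the order in retinas was different. There nr2e1 was higher in yng, while pax6a, pax6b, six3a and six6a were lower and the other 5 probe sets did not pass, where 10% of all probe sets were higher and 9.7% lower. The intensity of nr2e1 was 622, 644 and 663 in WT and 1381, 1166 and 1263 in yng, and the groups lie well apart. The difference was 0.95 ± 0.10 or 1.93-fold (adjusted p = 3.71e-07), and it passed without any 1 array.

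The 4 members that were lower in yng retinas at 52 hpf differed by less. For pax6a the values were 5555, 4682 and 5331 in WT and 4274, 3859 and 3821 in yng, without overlap, and the difference was -0.31 ± 0.10 (adjusted p = 0.0326). For pax6b they were 2798, 3413 and 3096 in WT and 2022, 2395 and 2019 in yng, also without overlap, a difference of -0.47 ± 0.16 (adjusted p = 0.0437). The gene six3a had 3443, 3357 and 3120.0 in WT and 2283, 3055 and 2423 in yng (-0.29 ± 0.09, adjusted p = 0.0215). All yng arrays were below all WT arrays in these 3 genes. For six6a the values were 523, 509 and 435 in WT and 278, 362 and 380.0 in yng (-0.44 ± 0.14, adjusted p = 0.0263), with the same order.

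These 4 calls were less stable than that of nr2e1. Without 1 array at a time, pax6b lost its call in all 6 cases (adjusted p = 0.0554 to 0.162), pax6a and six3a in 4 each and six6a in 3, and between 1 and 3 member probe sets were called. Each array of the comparison ended at least 1 call. The calls of pax6a, six3a and six6a were also lost with only the groups compared in the fit (adjusted p = 0.126, 0.142 and 0.051) and with quantile normalization within each tissue (0.107, 0.0691 and 0.0652), and that of pax6b with a log offset of 1 (adjusted p = 0.0573). The intervals of the members not called at 52 hpf were -0.27 to 0.31 for rx1, -0.62 to 0.01 for the brighter rx2 probe set, -0.54 to 0.06 for rx3 and -0.54 to 0.59 for six3b.

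**Figure D4:**
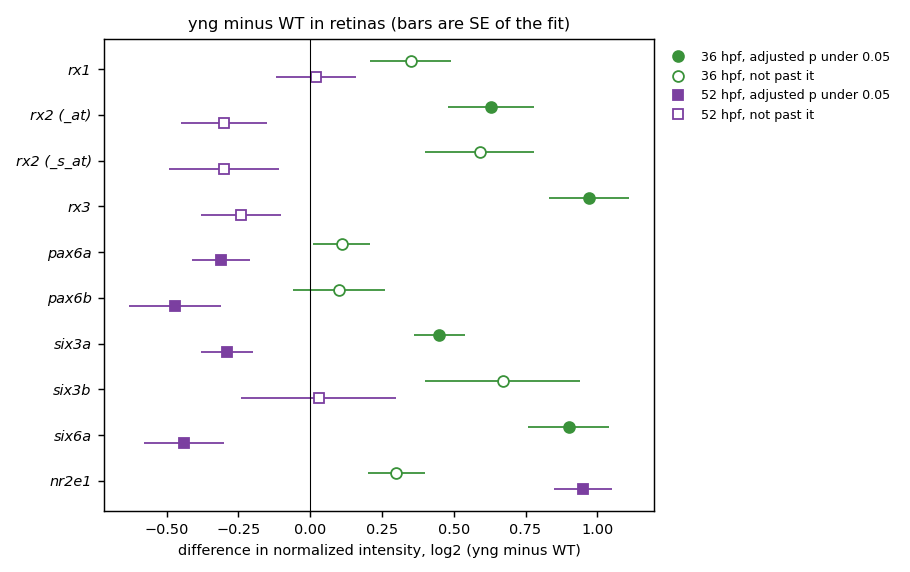
Difference between yng and WT retinas in normalized log2 intensity with bars of 1 SE, at 36 hpf (circles) and 52 hpf (squares), filled where adjusted p is under 0.05. At 36 hpf all members lie right of 0, up to 0.97 for rx3, and at 52 hpf nr2e1 is the filled point right of 0 (0.95).

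The change of the genotype difference from 36 to 52 hpf in retinas was tested as an interaction. It was negative for rx2, rx3, six3a and six6a and positive for nr2e1, where 1.25% of all probe sets passed with a positive value and 2.86% with a negative one. The largest was that of six6a, at -1.35 ± 0.20 (adjusted p = 0.000163). For rx3 it was -1.21 ± 0.20 (adjusted p = 0.000761), for six3a -0.75 ± 0.13 (adjusted p = 0.000743) and for the brighter rx2 probe set -0.93 ± 0.22 (adjusted p = 0.012). The only positive value was that of nr2e1, 0.64 ± 0.14 (adjusted p = 0.00744). None of these 5 calls was lost without any 1 of the 12 retina arrays. With only the retinas in the fit those of rx2 (adjusted p = 0.0801) and nr2e1 (adjusted p = 0.0708) were, and with quantile normalization within each tissue that of rx2 was (adjusted p = 0.0878).

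With the day as a block, 9 of the 10 probe sets passed this interaction, 8 of them negative. The added ones were the dimmer rx2 probe set (-0.89, adjusted p = 0.0108), pax6a (-0.42, adjusted p = 0.0191), pax6b (-0.57, adjusted p = 0.0432) and six3b (-0.64, adjusted p = 0.0331). Without the block these had adjusted p of 0.069, 0.126, 0.22 and 0.533. The remaining member, rx1, gave -0.33 ± 0.20 with an interval of -0.74 to 0.08.

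Within each day the genotype difference in retinas kept its direction for most of these genes. On days 1, 2 and 3 it was 0.82, 0.91 and 0.97 for six6a at 36 hpf and -0.71, -0.45 and -0.17 at 52 hpf. For rx3 it was 1.42, 0.75 and 0.74 at 36 hpf and -0.29, -0.21 and -0.21 at 52 hpf. For nr2e1 it was 0.32, 0.25 and 0.35 and then 1.21, 0.74 and 0.89. In six3a the differences were 0.55, 0.38 and 0.42 and then -0.49, -0.16 and -0.23, and in the brighter rx2 probe set 0.74, 0.87 and 0.28 and then -0.33, -0.25 and -0.34. Those of pax6b at 36 hpf had both signs (0.22, -0.30 and 0.40). Its differences at 52 hpf were -0.37, -0.52 and -0.50.

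**Figure D5:**
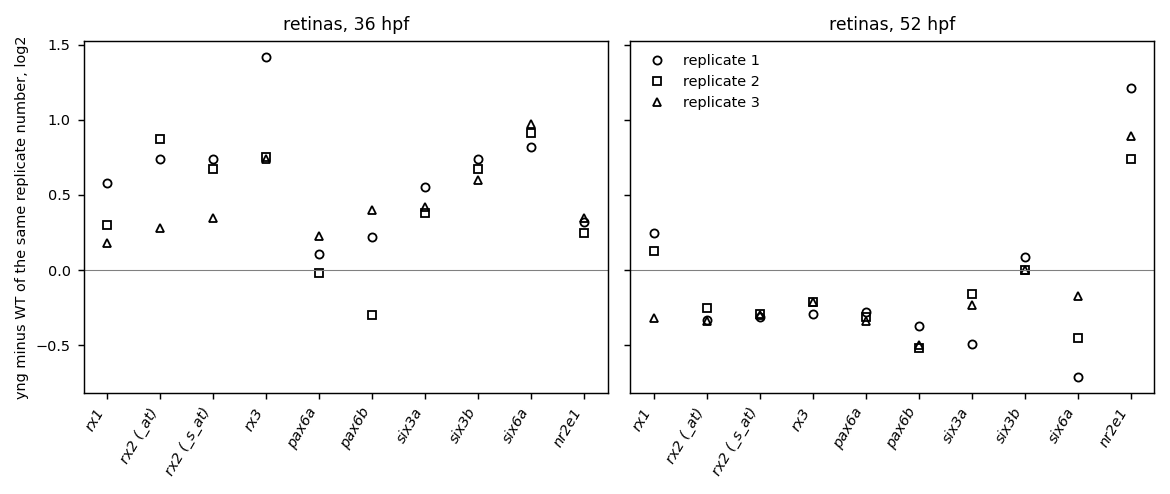
Difference between yng and WT retinas of the same replicate number, which is the hybridization day, in normalized log2 intensity for each member probe set at 36 and 52 hpf. The 3 points of six6a run from 0.82 to 0.97 at 36 hpf and from -0.71 to -0.17 at 52 hpf.

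Over the 4 retina groups the order of levels therefore differed between members. The order for nr2e1 was yng at 36 hpf (11.08 on the normalized log2 scale), WT at 36 hpf (10.78), yng at 52 hpf (10.46) and WT at 52 hpf (9.51), and no neighbours overlapped. For six6a, WT at 52 hpf and yng at 36 hpf shared the top with 9.15 each and overlapped, followed by yng at 52 hpf (8.71) and WT at 36 hpf (8.24). For rx3 both groups at 52 hpf overlapped at the top (11.02 in WT and 10.79 in yng), above yng at 36 hpf (9.14) and WT at 36 hpf (8.17). The latter overlapped WT whole embryos at 52 hpf (8.13). The top 4 places were retina groups in every member probe set. In pax6a these 4 ran from 12.41 to 12.10, and neighbours among them overlapped.

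In whole embryos the main fit called fewer member probe sets by genotype, 1 at 36 hpf and 3 at 52 hpf, beside 4 and 5 in retinas. Fewer of all probe sets were called in embryos as well. Of all probe sets 4.19% were higher and 4.9% lower in yng retinas at 36 hpf, and 10% and 9.7% at 52 hpf. The shares in embryos, given below, were smaller. The order of the member counts at 52 hpf was not stable. Without 1 array at a time the count there was 3 to 4 in embryos and 1 to 3 in retinas. At 36 hpf only six6a passed, higher in yng by 0.56 ± 0.14 (adjusted p = 0.0166), where 2.78% of all probe sets were higher and 3.17% lower. Its intensity was 59.7, 74.8 and 91.2 in WT and 116, 121 and 115 in yng, with no overlap, but the call was lost without WT replicate 1 (adjusted p = 0.116), WT replicate 2 (adjusted p = 0.0515) or yng replicate 2 (adjusted p = 0.0653), and with only the groups compared in the fit (adjusted p = 0.0868). At 52 hpf 2.77% of all probe sets were higher and 3.13% lower, and among the members nr2e1 was higher in yng by 0.46 ± 0.10 (adjusted p = 0.00513), with 207, 211 and 208 in WT and 300.0, 284 and 297 in yng. Every yng array lay above every WT array.

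Lower in yng embryos at 52 hpf were pax6a, by 0.45 ± 0.10 (adjusted p = 0.00736), and six3a, by 0.39 ± 0.09 (adjusted p = 0.00836, and 0.0789 with only the groups compared in the fit). The values of pax6a were 1961, 1875 and 2018 in WT and 1434, 1440 and 1420 in yng, and those of six3a 1091, 1106 and 1041 in WT and 828, 883 and 814 in yng. Neither gene's groups overlapped. For pax6b the difference was -0.51 ± 0.16 (adjusted p = 0.068), and with the day as a block -0.61 (adjusted p = 0.00836).

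From 36 to 52 hpf in WT embryos, rx3 (1.07 ± 0.14), pax6b (0.52 ± 0.16) and six3a (0.45 ± 0.09) rose, and rx2 (-0.57 ± 0.15 in the brighter probe set) and nr2e1 (-1.05 ± 0.10) fell, where 7.34% of all probe sets rose and 6.99% fell. Adjusted p ran from 3.31e-07 to 0.0315, and the call of pax6b was lost without any of 4 single arrays and with only the groups compared in the fit (adjusted p = 0.0922). With a log offset of 64 the rx2 difference was -0.32 and did not pass (adjusted p = 0.0964). With the day as a block pax6a passed too (0.27, adjusted p = 0.0306). In yng embryos rx3 rose by 0.80 ± 0.14 and the brighter rx2 probe set and nr2e1 fell by 0.54 ± 0.15 and 0.52 ± 0.10, where 5.04% of all probe sets rose and 3.79% fell. The rx2 call in yng embryos was lost without any of 5 single arrays, with a log offset of 64 (-0.32, adjusted p = 0.13), with only the groups compared in the fit (adjusted p = 0.0796) and on intensities as deposited (adjusted p = 0.0808). With the day as a block the dimmer rx2 probe set (-0.51, adjusted p = 0.0226) and pax6a (-0.30, adjusted p = 0.00896) also fell.

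The interaction of genotype and time in embryos called 0 of the 10 members with limma, where 0.194% of all probe sets passed, and 4 had an unadjusted p under 0.05. With the day as a block 1 member passed, pax6a (-0.58, adjusted p = 0.0388). The difference between tissues in the genotype effect was also tested. At 36 hpf 0.845% of all probe sets passed with a positive value and 1.52% with a negative one, and of the members only rx3, whose genotype difference was greater in retina than in embryo by 1.00 ± 0.20 (adjusted p = 0.00725, and 0.0629 with only the groups compared in the fit). At 52 hpf the shares were 2.55% and 4.29%, and of the members six6a (-0.77 ± 0.20, adjusted p = 0.0169) and nr2e1 (0.48 ± 0.14, adjusted p = 0.0379) passed. The six6a value joins a genotype difference of -0.44 in retina with 1 of 0.33 ± 0.14 in embryo, which was not called (adjusted p = 0.211). The nr2e1 call was lost without any of 10 of the 12 arrays, and that of six6a without yng embryo 52 hpf replicate 2 (adjusted p = 0.0515) or yng retina 52 hpf replicate 1 (adjusted p = 0.0593).

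The members did not vary alike across the 12 retina arrays, which share 4 groups and 3 days. Pearson's r, given as a description, was 0.903 between rx1 and the brighter rx2 probe set and 0.987 between both rx2 probe sets. It was 0.746 between six3a and six6a and 0.757 between rx1 and nr2e1. Between rx3 and nr2e1 it was -0.746, between rx3 and rx1 -0.682 and between pax6b and nr2e1 -0.696. The replicate number also marked single members. In six3b replicate 3 was the highest array in 8 of 8 groups, by 0.24 to 0.87 over the mean of the others, and in pax6b replicate 2 was the highest in 7 of 8.

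The genes most like each member over all 24 arrays were ranked by Pearson's r among 7442 candidate genes, a measure in which the contrast between retina and embryo weighs heavily. For nr2e1 they were terf1, which encodes a telomere-binding protein (r = 0.994), unc119b, a lipid-binding trafficking factor (0.992), and paxip1 (0.991). Over the 12 retina arrays alone these still gave 0.978, 0.974 and 0.964. For rx3 they were cuedc1a (0.978), the Bardet-Biedl ciliary gene ttc8 (0.969) and tapt1b (0.966), with 0.987, 0.983 and 0.954 in retinas. For pax6b, pax6a and six3a the retinal homeobox gene six6b was among the nearest (0.989, 0.979 and 0.981), but in retinas alone it gave 0.643, 0.435 and 0.054. The homeobox gene hmx4 was nearest to six3a (0.983) and level with six6b for pax6a (0.979), and in retinas it gave 0.695 and 0.756. For six6a the nearest was the tetraspanin gene tspan2a (0.972, and 0.812 in retinas), and for rx2 it was thap11 (0.983, and 0.77).

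These neighbours in pattern were picked by likeness over the same arrays, so a pattern shared with the member follows from the choice. Their differences are given as a description only. Of them, terf1 was higher in yng retinas at 52 hpf by 1.06 and unc119b by 0.65, and both fell with age in WT retinas, by 1.18 and 0.90. The gene hmx4 was lower in yng retinas at 52 hpf by 0.80 ± 0.10, rose with age in WT (0.44) and fell in yng (-0.65), and its interaction was -1.09 ± 0.14. The interaction of tspan2a was -0.52. The paralogue six6b did not pass in either genotype comparison of retinas (0.07 ± 0.09 and -0.14 ± 0.09).

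Other transcription factors of the eye field and of retinal progenitors were described as a list of 24 measured genes. Of all probe sets, 4.19% were higher and 4.9% lower in yng retinas at 36 hpf, and 10% and 9.7% at 52 hpf. For the interaction in retinas 1.25% were positive and 2.86% negative. The counts of this list, of the lists after it and of the neighbouring genes are to be read beside these shares. At 36 hpf 3 were higher in yng retinas (her6, hes6 and sox3) and 4 lower (six7, meis1b, meis2b and prox1a), with a median of 0.03, where the median of all probe sets was 0.02. The Hairy/E(spl) gene her6, a Notch target, differed by 0.79 ± 0.16, and prox1a, a factor of horizontal cells and of cell cycle exit, by -1.49 ± 0.43. The TALE homeobox gene meis2b, a Pax6 cofactor, differed by -1.71 ± 0.36, and six7, a homeobox gene of cone photoreceptors, by -1.10 ± 0.26. At 52 hpf 3 were higher (otx2b, sox3 and hes6) and 3 lower (meis1b, meis2a and hmx4), with a median of 0.01, against 0.04 for all probe sets. Here hes6, a neurogenic member of the Hes family, differed by 1.17 ± 0.17, the SoxB1 gene sox3 by 0.83 ± 0.10 and meis2a by -2.09 ± 0.27. The interaction was called for 2 of the 24, meis2a (-1.47 ± 0.38) and hmx4.

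Among 12 measured protein partners of the SIX-family and Pax6 factors, 3 were higher and 3 lower in yng retinas at 36 hpf (median -0.22), and 1 higher and 4 lower at 52 hpf (median -0.30). The phosphatase and SIX-family cofactor gene eya1 was higher at 36 hpf by 0.73 ± 0.16, and dachd, of the Dachshund family, was lower by 0.69 ± 0.11. The Groucho gene tle3b was lower at both ages (-0.44 ± 0.08 and -0.40 ± 0.08), and the corepressor gene ctbp2a was as well (-0.82 ± 0.17 and -1.59 ± 0.17). The geminin gene gmnn, whose product binds Six3 in medaka, was higher at both (0.47 ± 0.11 and 0.69 ± 0.11). The interaction was called for ctbp1 (-0.78 ± 0.13) and dachd (0.70 ± 0.16).

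Of 18 measured signals that act upstream of the eye field, 4 were higher and none lower in yng retinas at 36 hpf (median 0.07), and 5 were higher and 2 lower at 52 hpf (median 0.17). The Wnt receptor fzd8b was higher at 36 hpf by 2.16 ± 0.20 and differed by 0.19 ± 0.20 at 52 hpf, with an interaction of -1.97 ± 0.29. The growth factor gene fgf8a was higher at both ages (1.54 ± 0.18 and 1.75 ± 0.18), as was the Wnt repressor gene tcf7l1b (0.40 ± 0.12 and 0.94 ± 0.12). The hedgehog ligand genes went apart at 52 hpf, shha at -1.46 ± 0.19 and shhb at 0.98 ± 0.26. For fzd5, a Wnt receptor gene that promotes the eye field in zebrafish, the difference was 0.01 ± 0.14 at 36 hpf and 0.49 ± 0.14 at 52 hpf.

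Known targets of eye-field factors numbered 15 measured genes. As drawn up, this list shares crx, nr2e3, rho, alcama, ccnd1 and cryaa with the cell type marker lists below. Its counts are therefore not independent of theirs. In yng retinas 3 were higher and 1 lower at 36 hpf (median 0.26), and 6 higher and 2 lower at 52 hpf (median 0.48). At 36 hpf cxcr4a, a chemokine receptor gene that acts downstream of rx3 in the zebrafish eye field, differed by 1.31 ± 0.16, and at 52 hpf by 0.70 ± 0.16. The proneural genes ascl1a and neurog1 were higher at 52 hpf, by 1.23 ± 0.14 and 1.60 ± 0.25, and so was the cyclin gene ccnd1, by 0.81 ± 0.14. The cell adhesion gene alcama, a marker of zebrafish ganglion cells, was lower at both ages (-1.58 ± 0.13 and -1.17 ± 0.13), and rlbp1a, a retinoid carrier of Müller glia, was lower at 52 hpf (-2.84 ± 0.15). The basic helix-loop-helix gene atoh7, which is needed for ganglion cells and is a target of Pax6 in the mouse, did not pass (-0.25 ± 0.17 and -0.08 ± 0.17). In whole embryos 4 of these 15 were higher in yng at 36 hpf and none was lower, and at 52 hpf 7 were higher and 1 lower. Of all probe sets 2.78% were higher and 3.17% lower at 36 hpf, and 2.77% and 3.13% at 52 hpf.

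Markers of retinal cell types differed between the genotypes beside the members. In yng retinas 7 of 8 measured ganglion cell markers were lower at 36 hpf and 7 at 52 hpf, with summed intensities of 4785 to 6030 in WT against 1077 to 1417 in yng, and of 8961 to 9872 against 2312 to 2638. Of 7 amacrine markers 4 and then 7 were lower, with sums of 16420 to 17360 in WT and 6492 to 6817 in yng at 52 hpf. Of 12 photoreceptor markers 1 was lower at 36 hpf and 7 at 52 hpf, with sums of 12140 to 13390 and 11180 to 12050 at the later age. Of 14 cycling markers 5 were higher at 52 hpf and none at 36 hpf, with sums of 34030 to 36990 in WT and 42010 to 45260 in yng at 52 hpf. Lens markers summed to 124.6 to 158.7 in WT retinas and 425.1 to 3659 in yng retinas at 52 hpf, and 4 of 5 were higher in yng. At 36 hpf their sums were 374.8 to 748.8 in WT and 378.3 to 2315 in yng retinas, and none of the 5 was called. Of 10 forebrain and other brain markers, 2 were higher and 1 lower in yng retinas at 36 hpf, and 3 higher and 2 lower at 52 hpf. Their sums at 36 hpf were 687.6 to 1058 in WT and 1155 to 1473 in yng. At 52 hpf they were 2122 to 2452 in WT and 1123 to 1272 in yng. The sum was thus higher in yng at the earlier age and lower at the later one, with no overlap. A sum is weighted to bright genes, and the median difference of the list was 0.03 at 36 hpf and 0.33 at 52 hpf. The interaction of genotype and time was negative for 2 of them, tbr1b (-1.45 ± 0.16) and gbx2 (-1.08 ± 0.20). The median interaction of these brain markers was 0.19, and none was called positive. Of 5 red cell markers 2 were lower in yng retinas at 36 hpf and none differed past the threshold at 52 hpf, with sums of 2857 to 4902 in WT and 1525 to 3307 in yng at 36 hpf. The part of these cell types in the results for the members was not tested.

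The nearest measured protein-coding genes beside the members numbered 18, placed by their order in the RefSeq annotation. In yng retinas atcaya, lman1 and snx3 were lower and none was higher at each age, and the interaction was called for none. The pattern was not confined to retinas, since 3 were lower in yng embryos at 36 hpf and 2 at 52 hpf, and none was higher. Of all probe sets 3.17% and 3.13% were lower in those embryos. The gene next to nr2e1, snx3, was lower in yng retinas (-0.36 and -0.64) where nr2e1 itself was higher at 52 hpf.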

How the data were processed

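RNA of 24 pools was measured on Affymetrix zebrafish arrays. Per the labels, each pool gave 33 ng of RNA for a two-cycle labelling with biotin. Values in the deposited table are linear intensities, 1 for each probe set on each array. The authors' summary of probes and their scaling are not given in the sources used here. Besides it the deposited files are text records of each array with no expression value, from which came the hybridization day, fluidics station and module, and wash errors.

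Of 15617 probe sets 115 controls were left out. The platform annotation gave 1 symbol for 10795, several for 135 and none for 4572, and RefSeq (assembly GRCz12tu, used for names and gene order only) changed 1 symbol. Quantile normalization was run over all arrays, and log2(value + 16) was taken. Folds are on that scale and understate the change of dim genes. In R 4.3.3, limma 3.58.1 fitted 1 mean per group (16 residual degrees of freedom), which is the study's factorial model without elimination of terms, and p-values were adjusted by Benjamini and Hochberg over 15502 probe sets. Tables and plots used Python 3.11.15, pandas 2.3.3 and matplotlib 3.10.9. The pipeline was tested on simulated data.

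Every member probe set was tested in each main comparison, but those without a call are not all named above, mainly in the embryo comparisons. The other lists are given by counts and up to a few genes with the largest differences, and a few more were chosen after their values were seen. Likeness was ranked among genes with a mean intensity of at least 50, leaving out names of uncharacterised clones. The members and lists were chosen with earlier results of these data known.

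Replicates 1, 2 and 3 were hybridized on days 1, 2 and 3, apart from WT embryo 52 hpf replicate 3, alone on day 4. Deviations from the group means had a median correlation of 0.331 between arrays of 1 number and of -0.169 between numbers, and all 24 arrays matched their own number best. The lowest pair gave 0.074. Alternatives changed the scaling, the log offset, the intensity filter, the replicate or day block, the groups in the fit and single arrays.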

Additional observations from a re-analysis of the deposited data

Results flagged for a closer look

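These results stood out because the genotype difference itself differed between ages or tissues in limma's test of the difference. Between 36 and 52 hpf in retinas the difference between yng and WT moved by -1.35 for six6a, -1.21 for rx3, -0.93 for rx2 (the brighter probe set), -0.75 for six3a and 0.64 for nr2e1. For six6a and six3a the genotype difference was called in opposite directions at the ages, for nr2e1 it was called at 52 hpf, and for rx2 and rx3 at 36 hpf. Between tissues the genotype difference was greater in retina than in embryo by 1.00 for rx3 at 36 hpf and by 0.48 for nr2e1 at 52 hpf. For six6a at 52 hpf the value was -0.77, from -0.44 in retina and an uncalled 0.33 in embryo. Some of these calls were not stable. Those of six6a and six3a for genotype in retinas at 52 hpf were lost without any of 3 and of 4 single arrays. Between tissues at 52 hpf, the call of nr2e1 was lost without any of 10 of the 12 arrays, and that of six6a without either of 2. Groups of 3 arrays were not searched for single outlying arrays.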

How the results depend on the processing

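No called member difference changed sign under any alternative run, and uncalled differences that did took values between -0.15 and 0.14 after the change. The count of 10 member probe sets called higher in retina held in all 4 tissue comparisons under every alternative run for them, single arrays left out included; quantile normalization within each tissue was not run there, since it removes differences between tissues. With the replicate block, which pairs arrays by number, 143 of 160 member results kept their call and 17 gained one. It moved the count from 4 to 7 for genotype in retinas at 36 hpf, from 3 to 5 for time in yng embryos, from 5 to 9 for genotype by time in retinas and from 0 to 3 for it in embryos. The day block gave 7, 5, 9 and 1 for the same comparisons. With only the groups of a contrast in the fit, which leaves fewer arrays for the spread, 16 calls were lost. Of these, 10 were in comparisons whose counts became 2 for genotype in retinas at 36 hpf, 2 at 52 hpf, 0 in embryos at 36 hpf, 3 for genotype by time in retinas, and 0 and 1 for genotype by tissue at 36 and 52 hpf. The other 6 were six3a for genotype in embryos at 52 hpf (adjusted p = 0.0789), rx1 and six3a for time in WT retinas (0.102 and 0.198), six6a for time in yng retinas (0.0828), pax6b for time in WT embryos (0.0922) and rx2 for time in yng embryos (0.0796). Quantile normalization within each tissue, an alternative chosen after seeing the data, kept 89 of 100 member results, lost 9 calls and gained 2. Not all of these 9 calls are named above. That run gave 2 for genotype in retinas at 52 hpf, and a log offset of 1 gave 1 for genotype by tissue at 52 hpf. The cause was not tested. Without 1 array at a time the counts ran from 3 to 7 for genotype in retinas at 36 hpf, 1 to 3 at 52 hpf, 0 to 1 in embryos at 36 hpf, 5 to 6 for genotype by time in retinas, 1 to 2 for genotype by tissue at 36 hpf and 0 to 2 at 52 hpf. Intensities as deposited kept 150 of 160 member results, a common median 154 and a filter on mean intensity under 50 kept 158. Low signal limits differences in embryos for rx1 (36.1 to 54.9) and the dimmer rx2 probe set (25.8 to 70.2). The brighter rx2 probe set (43.3 to 95.2), six6a (59.7 to 121) and six3b (60.4 to 129) were also dim there. The embryo calls of rx2 and six6a therefore rest on low signal.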
